A study of Homo sapiens with 6 samples.

Results

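*MIR205* and 8 protein-coding regulators of the epithelial-mesenchymal transition (EMT) were compared between cisplatin-selected UM-Cis cells and their parent line, UMSCC1. The 8 regulators were the zinc finger factors *ZEB1* and *ZEB2*, the SNAIL factors *SNAI1* and *SNAI2*, the TWIST factors *TWIST1* and *TWIST2*, the homeobox factor *PRRX1* and the splicing regulator *ESRP1*. These 9 genes are part of 14812 genes that could be named on the arrays. They were chosen by symbol, with the probe set of highest mean signal over the 6 arrays, and each had 1 named probe set. The set was proposed with the differences between the lines in view, so those differences are described without a test.

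UMSCC1 is an established cell line of oral squamous carcinoma. UM-Cis was derived from it over about 12 months by raising cisplatin in steps, with 1 μg/mL at the start and 5 μg/mL at the end. Both lines were grown free of the drug before total RNA was taken, and each line was measured on 3 Affymetrix Human Gene 2.0 ST arrays. UM-Cis is the product of 1 selection, and whether it is a clone is not given in the sources used here.

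EMT is the loss of epithelial junctions and polarity with a gain of mesenchymal traits. ZEB, SNAIL and TWIST proteins bind E-box sequences and repress epithelial genes, among them the E-cadherin gene *CDH1*. MicroRNAs of the miR-200 family and miR-205 bind *ZEB1* and *ZEB2* transcripts through the seed at their 5′ end and lower ZEB levels, and *ZEB1* in turn represses the miR-200 genes. *ESRP1* maintains epithelial splice forms of transcripts such as *FGFR2* and *CD44*, and is itself repressed by *ZEB1*. In stratified epithelia, miR-205 is an abundant microRNA of the basal layer. A gene-level array reads RNA from the region of a microRNA gene, such as its primary transcript, and does not measure the mature microRNA.

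The *MIR205* hairpin lies on the plus strand at chr1:209432133-209432242 of GRCh38.p14, within the host gene *MIR205HG* at chr1:209428820-209432549. It begins 3313 bases after the start of the host and ends 307 bases before its end. RefSeq gives the hairpin with both mature arms in capitals, shown because *MIR205* had the largest difference of the 9 genes.

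MIR205 hairpin: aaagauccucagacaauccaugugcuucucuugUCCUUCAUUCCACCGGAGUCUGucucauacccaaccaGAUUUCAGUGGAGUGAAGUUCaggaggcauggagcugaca

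The mature microRNAs that share *ZEB1* and *ZEB2* as reported targets are shown with the seed, bases 2 to 8, in capitals. They fall into 3 groups by seed, and the seed of miR-205-5p was shared with 0 other mature microRNAs of the RefSeq table.
hsa-miR-205-5p: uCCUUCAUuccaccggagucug
hsa-miR-200c-3p: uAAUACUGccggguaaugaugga
hsa-miR-200b-3p: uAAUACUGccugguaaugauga
hsa-miR-429: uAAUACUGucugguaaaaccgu
hsa-miR-141-3p: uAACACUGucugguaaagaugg
hsa-miR-200a-3p: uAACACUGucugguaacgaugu

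Promoter windows of 300 bases, 250 before and 50 after a RefSeq gene start, were searched for CAGGTG, the E-box core bound by ZEB and SNAIL proteins, on both strands (CACCTG on the other strand, with no overlap of matches). Matches were found in 2 of 7 windows of *ZEB1* and in 0 windows of *ZEB2*, *TWIST2*, *PRRX1* and *MIR205HG*. Of all 35116 windows, 20.59% held the motif and 0.635% held it 3 times or more. The *ZEB1* window with 3 matches (in capitals) is shown because *ZEB1* encodes an E-box factor itself. It lies at chr10:31318966-31319265 on the plus strand, with matches at bases 9, 166 and 284.

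ZEB1 promoter window: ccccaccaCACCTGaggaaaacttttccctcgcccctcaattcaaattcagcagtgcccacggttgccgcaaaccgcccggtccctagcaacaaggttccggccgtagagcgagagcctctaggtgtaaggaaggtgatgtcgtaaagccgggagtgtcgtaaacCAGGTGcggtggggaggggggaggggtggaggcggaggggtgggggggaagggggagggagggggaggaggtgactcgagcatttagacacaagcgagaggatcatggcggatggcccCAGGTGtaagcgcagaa

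The window upstream of *MIR205HG*, at chr1:209428570-209428869 on the plus strand, is shown because the hairpin lies in this transcript, and it held no match. A match, or its absence, describes these letters alone.

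MIR205HG promoter window: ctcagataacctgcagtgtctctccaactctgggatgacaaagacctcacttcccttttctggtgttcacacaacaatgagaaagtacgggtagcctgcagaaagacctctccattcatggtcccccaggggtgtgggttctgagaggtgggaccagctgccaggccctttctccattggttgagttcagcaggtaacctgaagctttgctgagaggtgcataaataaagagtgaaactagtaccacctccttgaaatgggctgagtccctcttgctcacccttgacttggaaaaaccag

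Signals are on the log2 scale, and differences are UM-Cis minus UMSCC1, so that 1 unit is a 2-fold difference. Array medians were 4.74 to 4.82. The labels number 2 of the 3 arrays of each line (1 and 2), and values are listed with the array that has no number first, then array 1, then array 2. The first principal component separated the lines (51.5% of the variance), and the second set both arrays with no number apart from the others (28.6%). Values from the numbered arrays alone are therefore given beside the results. Of 13 measured squamous keratinocyte markers, 0 rose and 3 fell in UM-Cis by limma, which were *KRT13* (-2.05), *KRT15* (-0.80) and *KRT5* (-1.94). The summed linear signal of the 13 was 3980 to 4284 on UM-Cis arrays and 4168 to 5454 on UMSCC1 arrays. That sum was carried mostly by *SFN* and *EPCAM*, and says little about the keratins. At an unadjusted p under 0.05, 0 of the 13 were higher and 7 lower, and the unpaired test listed in the study's methods, the methods' t-test, called 2. The share of all genes at an unadjusted p under 0.05 was not counted. Counts at that threshold, here and below, are therefore a description alone. The part of these markers in the results below was not tested.

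*MIR205* had by far the lowest level in UM-Cis relative to UMSCC1 among the 9 genes. Its log2 signals were 6.12, 5.63 and 5.70 in UM-Cis, against 9.85, 9.23 and 9.43 in UMSCC1. The lines did not overlap, and the array with no number was the highest in both. The means were 5.82 ± 0.26 in UM-Cis and 9.51 ± 0.32 in UMSCC1 (SD, n = 3 each), a difference of -3.69 (SE 0.20) or 12.9-fold lower in UM-Cis. The host gene *MIR205HG* was not analysed here. In these bulk samples, fewer cells with the transcript and less transcript per cell cannot be told apart.

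**Figure D1:**
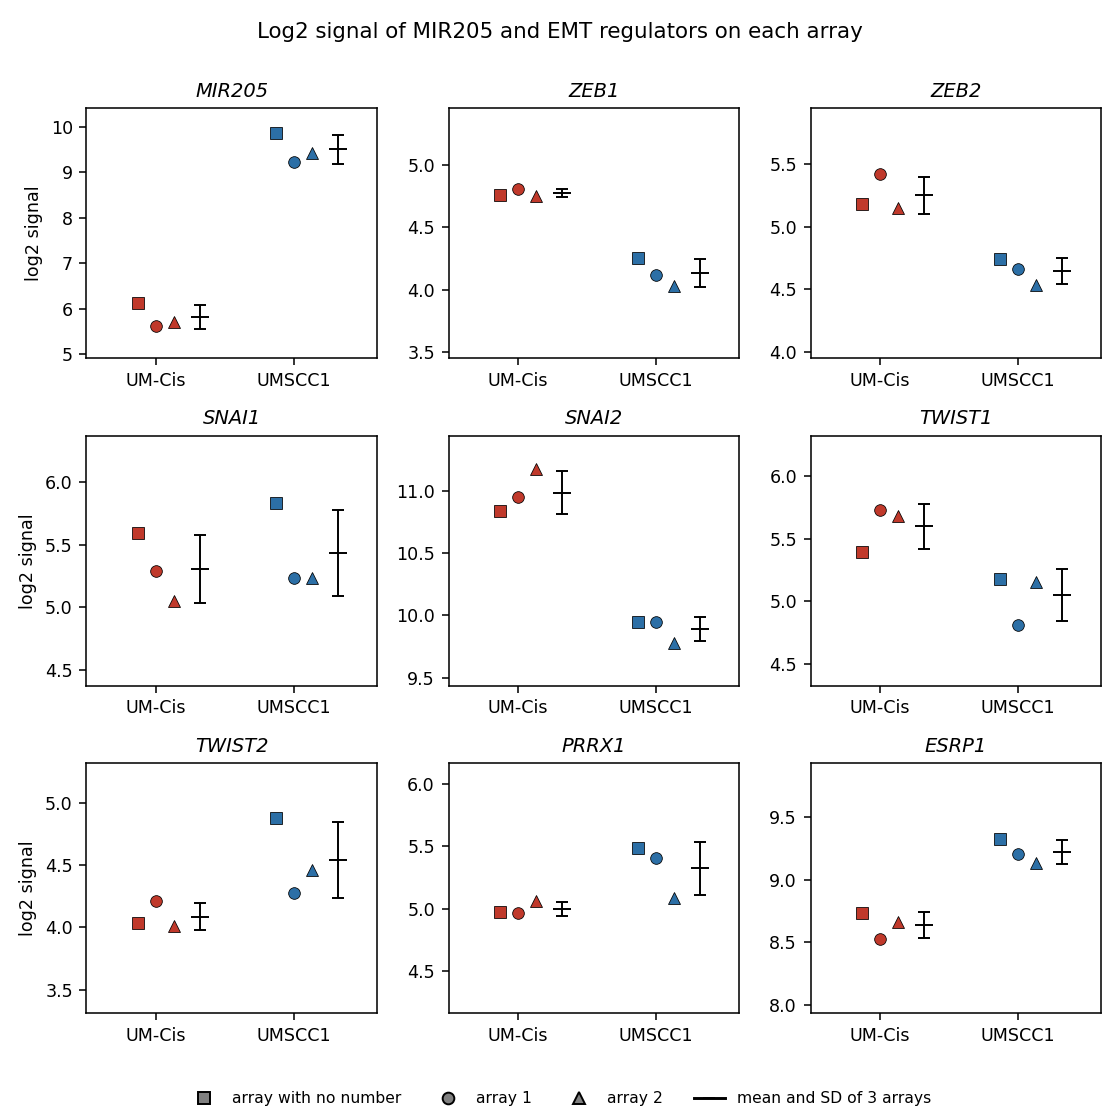
Log2 signal (vertical axes, each panel with its own range) of the 9 genes on the 3 UM-Cis arrays (left, red) and the 3 UMSCC1 arrays (right, blue), with the mean and SD of each line as black bars. *MIR205* averaged 5.82 in UM-Cis and 9.51 in UMSCC1, and the lines overlapped for *SNAI1* alone.

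The named genes measured within 1000 kb of *MIR205* did not share its difference in size. The nearest of them, *G0S2*, starts 243.3 kb away, so these genes do not describe the region next to the hairpin. Within 1000 kb, 8 named genes had their start, all downstream of *MIR205*, and their differences ran between -1.11 and 0.67 with a median of 0.09. By limma, 0 of the 8 passed an adjusted p of 0.05. Before adjustment, at a p under 0.05, 2 were higher and 1 was lower, and the methods' t-test called 0. *SYT14*, a synaptotagmin gene 506.1 kb away, had the most negative difference (-1.11, SE 0.39, adjusted p = 0.116 by limma), with means of 5.51 ± 0.55 in UM-Cis and 6.61 ± 0.73 in UMSCC1. *SERTAD4*, 800.7 kb away, had the most positive one (0.67, SE 0.18, adjusted p = 0.0557 by limma).

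**Figure D2:**
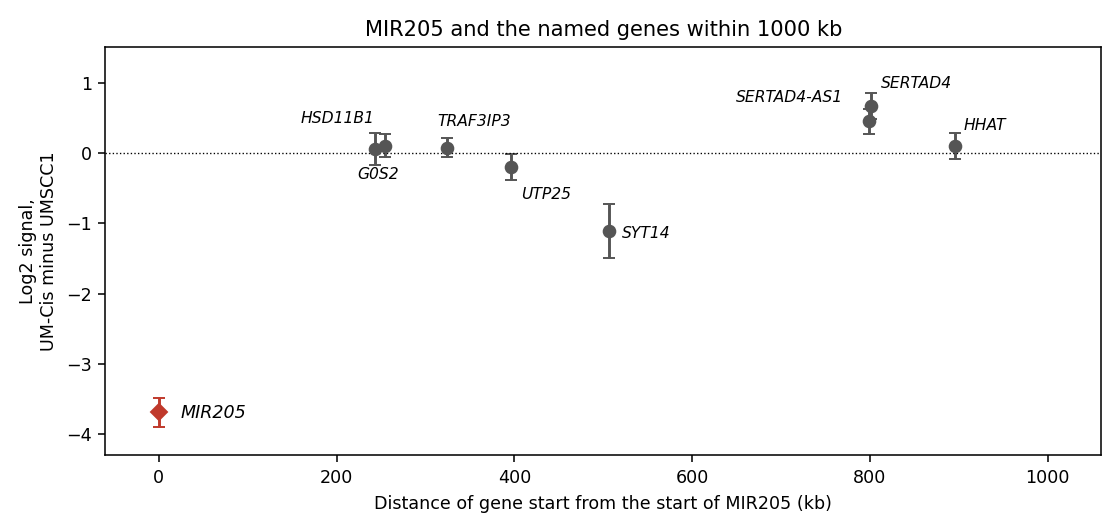
Difference in log2 signal, UM-Cis minus UMSCC1 (vertical axis), against the distance of each gene start from the start of *MIR205* in kb (horizontal axis), with standard errors from limma as bars. *MIR205* (diamond) lies at -3.69, and the 8 named neighbours (circles) lie between -1.11 and 0.67.

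Of the miR-200 family genes, *MIR200C* was lower in UM-Cis. Its log2 signals were 4.70, 4.78 and 4.75 in UM-Cis, against 5.94, 5.61 and 5.92 in UMSCC1, without overlap. The difference was -1.08 (SE 0.14, adjusted p = 0.00261 by limma), 2.12-fold lower in UM-Cis, and stayed past the threshold whichever array was left out. With arrays scaled so that the median of 6 commonly used control genes was equal, it was -0.85 (adjusted p = 0.0629). These control genes had a median difference of -0.30 as deposited. *MIR200C* averaged 5.29 over the 6 arrays, under the limit of 5.73 for dim probe sets, and was removed where those were left out. With no detection call, its signal over background is not known.

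*MIR141*, the partner of *MIR200C* in one cluster on chromosome 12, had log2 signals of 5.09, 5.13 and 5.35 in UM-Cis, against 5.59, 5.50 and 5.74 in UMSCC1. Every UM-Cis array was below every UMSCC1 array, but the difference of -0.42 (SE 0.14) did not pass by limma (adjusted p = 0.100). It did in limma with the array label as a block (adjusted p = 0.0436). That block, here and below, rests on correlations in these same data and has no support in the sources. The cluster on chromosome 1 gave no difference past the threshold. *MIR200A* differed by 0.30 (SE 0.16), *MIR200B* by 0.21 (SE 0.33) and *MIR429* by -0.05 (SE 0.15), and the lines overlapped for all 3. The mean log2 signals of these 3 genes were all under the array medians in both lines.

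**Figure D3:**
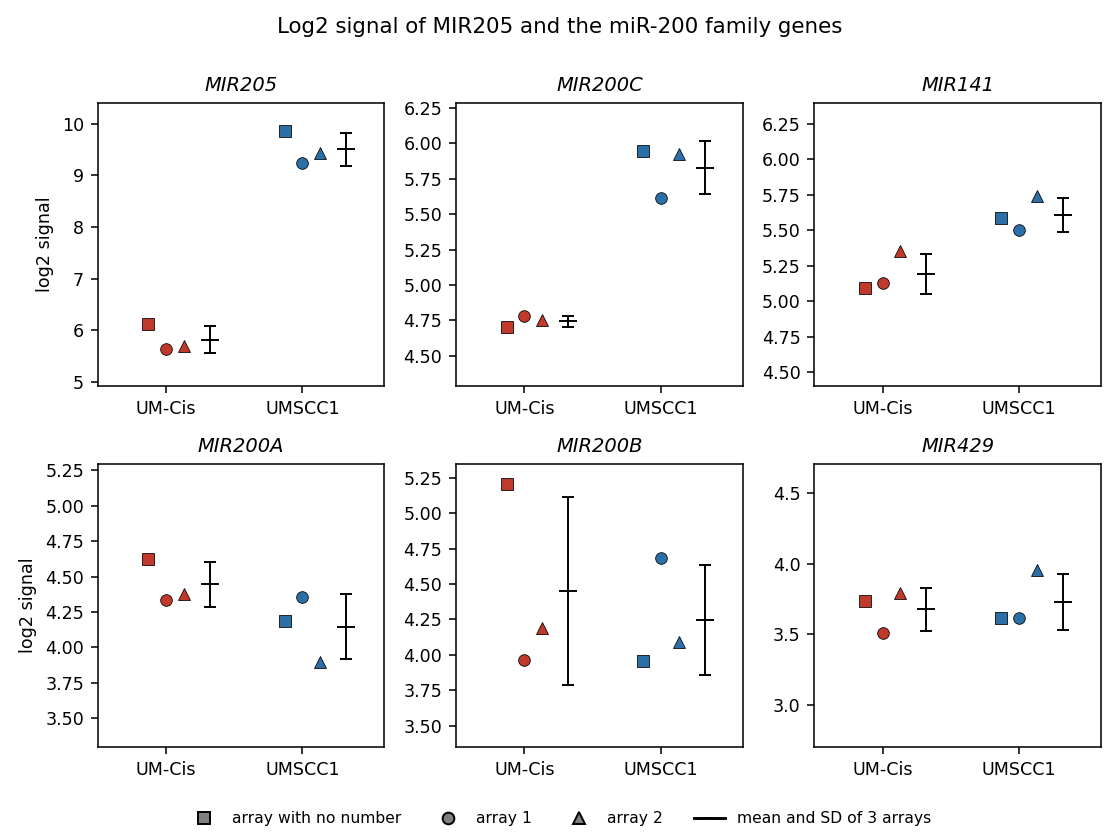
Log2 signal (vertical axes, each panel with its own range) of *MIR205* and the 5 miR-200 family genes on the 3 UM-Cis arrays (left, red) and the 3 UMSCC1 arrays (right, blue), with the mean and SD of each line as black bars. *MIR205*, *MIR200C* and *MIR141* did not overlap between the lines, and *MIR200A*, *MIR200B* and *MIR429* did.

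Over 17 measured microRNA genes of the epithelial state (of 21 listed, *MIR205* apart), 0 rose and 1 fell (5.88%) by limma. Of all genes, 5.91% rose and 4.60% fell. The median difference of the list was -0.07, against -0.04 over all genes. At an unadjusted p under 0.05 the counts of the list were 0 and 2, and the methods' t-test called 1. Of the others, *MIR30C1* (-0.52, SE 0.34), *MIR141* (-0.42) and *MIR34A* (-0.39, SE 0.25) had the largest differences and did not pass. Of 22 measured microRNA genes of the mesenchymal state (of 30 listed), 1 rose (4.55%) and 0 fell by limma, against the same shares of all genes. Before adjustment, at a p under 0.05, 3 were higher and 1 was lower, and the methods' t-test called 0.

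The gene that rose was *MIR222*, a microRNA gene linked to invasive growth. Its log2 signals were 5.63, 5.50 and 6.08 in UM-Cis, against 4.81, 4.78 and 5.03 in UMSCC1, a difference of 0.87 (SE 0.18, adjusted p = 0.0189 by limma). It lost the call in 2 of the 6 fits without 1 array. It averaged 5.30 over the 6 arrays, under the limit of 5.73 for dim probe sets, and was removed where those were left out. Its cluster partner *MIR221* differed by 0.93 (SE 0.55, adjusted p = 0.354) and *MIR21*, which is raised in many carcinomas, by 0.91 (SE 0.29, adjusted p = 0.0885). Both passed with the array label as a block, a pairing drawn from these same data (adjusted p = 0.0109 for *MIR221* and 0.0275 for *MIR21*). *MIR31HG*, the host of *MIR31*, had a difference of -0.64 (SE 0.22, adjusted p = 0.113 by limma). The probe set of *MIR31* itself differed the other way, by 0.37 (SE 0.16, adjusted p = 0.194), and the lines overlapped.

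*ZEB1* and *ZEB2*, the reported targets of miR-205 among the 9 genes, were higher on every UM-Cis array. Their signals were near the array median of all probe sets and under the median of the named genes on every array. *ZEB1* had log2 signals of 4.76, 4.81 and 4.75 in UM-Cis, against 4.25, 4.12 and 4.03 in UMSCC1. Each UM-Cis value exceeded the highest UMSCC1 value by more than the whole range within either line. The means were 4.77 ± 0.03 in UM-Cis and 4.14 ± 0.11 in UMSCC1, a difference of 0.64 (SE 0.12) or 1.55-fold. *ZEB1* was below the median of the array on 1 of the UM-Cis arrays and on all 3 UMSCC1 arrays, and with no detection call its signal over background is not known.

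*ZEB2* had log2 signals of 5.18, 5.42 and 5.15 in UM-Cis, against 4.74, 4.66 and 4.54 in UMSCC1. The lines did not overlap, and UM-Cis array 1 was the highest. The means were 5.25 ± 0.15 in UM-Cis and 4.65 ± 0.10 in UMSCC1, a difference of 0.60 (SE 0.14) or 1.52-fold. All 3 UMSCC1 values were under the array median, and 0 UM-Cis values were.

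On the numbered arrays alone the difference was 0.70 (SE 0.12) for *ZEB1* and 0.68 (SE 0.14) for *ZEB2*. The differences of the antisense neighbours did not pass the threshold. *ZEB1-AS1*, which overlaps the start of *ZEB1*, differed by 0.24 (SE 0.16, adjusted p = 0.395 by limma). *ZEB2-AS1* differed by 0.14 (SE 0.17, adjusted p = 0.690), and the lines overlapped for both genes. These 2 genes were named after their values were seen.

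*SNAI2*, which encodes SLUG, had the highest signal in UM-Cis relative to UMSCC1 of the 8 protein-coding regulators. Its log2 signals were 10.84, 10.94 and 11.17 in UM-Cis, against 9.95, 9.95 and 9.78 in UMSCC1. The lines were separated by more than the spread in either. The means were 10.98 ± 0.17 in UM-Cis and 9.89 ± 0.10 in UMSCC1, a difference of 1.09 (SE 0.14) or 2.13-fold higher in UM-Cis.

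*SNAI1*, which encodes the related repressor SNAIL, did not share that difference. It had log2 signals of 5.59, 5.29 and 5.05 in UM-Cis, against 5.84, 5.23 and 5.24 in UMSCC1. The lines overlapped, and the array with no number was the highest in each. The means were 5.31 ± 0.27 in UM-Cis and 5.44 ± 0.35 in UMSCC1, and the difference of -0.12 (SE 0.21) turned positive (0.11) with arrays scaled to equal control genes. It also turned positive without array 2 of UM-Cis (0.01) and without the array with no number of UMSCC1 (0.08).

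The 2 TWIST genes, which encode basic helix-loop-helix factors, differed in opposite directions. *TWIST1* had log2 signals of 5.39, 5.73 and 5.68 in UM-Cis, against 5.18, 4.81 and 5.15 in UMSCC1. The lines did not overlap, though the lowest UM-Cis value and the highest UMSCC1 value, both on arrays with no number, lay close together. The means were 5.60 ± 0.18 in UM-Cis and 5.05 ± 0.21 in UMSCC1, a difference of 0.55 (SE 0.16). It was 0.72 (SE 0.15) on the numbered arrays alone.

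*TWIST2* had log2 signals of 4.04, 4.21 and 4.01 in UM-Cis, against 4.88, 4.28 and 4.46 in UMSCC1. All UM-Cis values were lower, the nearest pair being the arrays numbered 1, and 5 of the 6 values lay under the array median. The difference was -0.45 (SE 0.17), with means of 4.09 ± 0.11 in UM-Cis and 4.54 ± 0.31 in UMSCC1. Without the UMSCC1 array with no number it was -0.28, and with arrays scaled to equal control genes -0.22.

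*PRRX1*, a homeobox gene of mesenchymal cells, had log2 signals of 4.97, 4.96 and 5.06 in UM-Cis, against 5.48, 5.41 and 5.08 in UMSCC1. The UM-Cis values were all lower, by a narrow margin on array 2. The means were 5.00 ± 0.06 in UM-Cis and 5.32 ± 0.21 in UMSCC1, a difference of -0.32 (SE 0.15), which shrank to -0.09 with arrays scaled to equal control genes.

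*ESRP1* was lower on every UM-Cis array. Its log2 signals were 8.73, 8.53 and 8.66 in UM-Cis, against 9.32, 9.21 and 9.13 in UMSCC1. The lines did not overlap, and both stayed well over the array medians. The means were 8.64 ± 0.10 in UM-Cis and 9.22 ± 0.10 in UMSCC1, a difference of -0.58 (SE 0.13) or 1.49-fold lower in UM-Cis. Its relative *ESRP2* had log2 signals of 8.13, 7.67 and 7.55 in UM-Cis, against 8.55, 7.94 and 8.04 in UMSCC1. These overlapped, and the difference of -0.40 (SE 0.22) did not pass (adjusted p = 0.306 by limma).

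**Figure D4:**
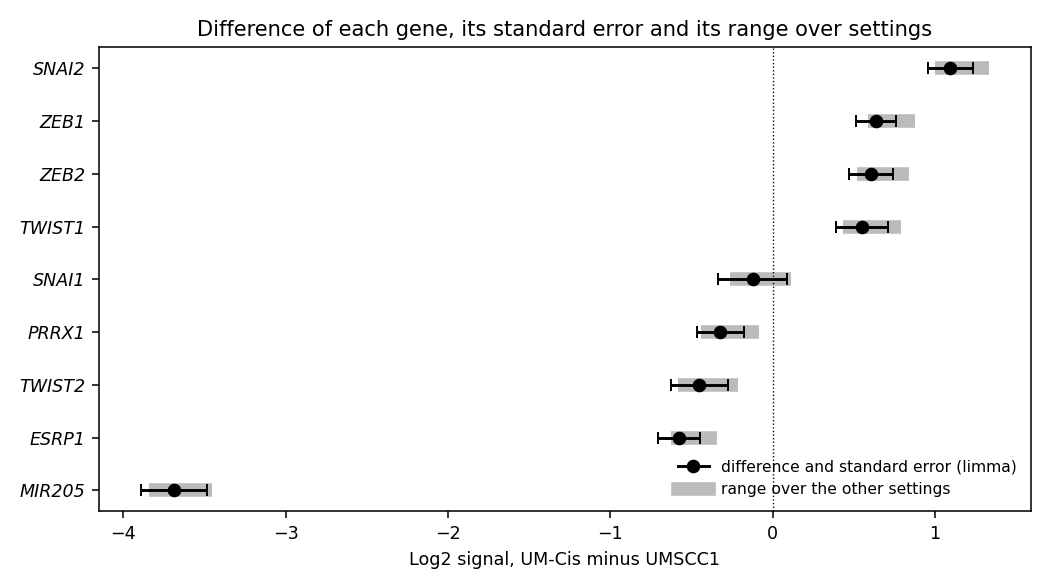
Difference in log2 signal, UM-Cis minus UMSCC1 (horizontal axis), of the 9 genes, with the standard error from limma (black) and the range over the other settings tried (grey). *SNAI2* (1.09), *ZEB1* (0.64), *ZEB2* (0.60) and *TWIST1* (0.55) stayed above 0, *MIR205* (-3.69), *ESRP1* (-0.58), *TWIST2* (-0.45) and *PRRX1* (-0.32) stayed below 0, and *SNAI1* (-0.12) lay on both sides.

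On the numbered arrays alone, the differences were -3.67 for *MIR205*, 1.19 for *SNAI2*, -0.58 for *ESRP1*, -0.26 for *TWIST2*, -0.23 for *PRRX1* and -0.06 for *SNAI1*, each with the sign it had on all 6 arrays.

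Among the 9 genes, *ZEB1*, *ZEB2* and *SNAI2* were past an adjusted p of 0.05 in the direction of higher signal in UM-Cis, where 5.91% of all genes were called. *MIR205* and *ESRP1* were past it in the direction of lower signal, where 4.60% of all genes were called. All UM-Cis arrays exceeded all UMSCC1 arrays for 4 of the 9 (14.7% of all genes) and below for 4 (15.7% of all genes). Because the 9 genes were selected on this contrast, nothing is read from these counts. Over all genes 876 were higher and 681 lower in UM-Cis, and with arrays scaled to equal control genes 787 were higher and 166 lower. That scaling moved the median difference of all genes up by 0.24.

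The genes most like a given regulator were ranked by Pearson's r over the 6 arrays, among the brighter genes (7405 for *MIR205*). Such an r mostly follows the difference between the lines, which all 6 arrays share, and is given as a description. *MIR205* ran most closely with *MYBL2*, a cell cycle factor (r = 0.999), *NUP58*, a nuclear pore gene (0.998), and *MBOAT1* (0.997). It ran opposite to *SECISBP2* (-0.999), *ARHGAP29* (-0.998) and *TPM2* (-0.998). *ZEB1* ran with *POPDC3* (r = 0.9996), *WDR5B* (0.997) and *MMD* (0.997), and opposite to *WASHC4* (-0.998), *PEG10* (-0.998) and *STK4* (-0.997). *ESRP1* ran with *FGF11* (r = 0.996), *PCBD1* (0.995) and *TYMS* (0.995), and opposite to *INSIG2* (-0.998), *HSD17B1* (-0.997) and *IQCB1* (-0.997).

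The other genes of the pathway were taken from 11 lists, written from general knowledge of EMT but with earlier results of these data known. Their counts are therefore a description beside the share of all genes, and not an independent test. Of 218 measured genes (of 316 listed, the 9 regulators apart), 19 rose (8.72%, against 5.91% of all genes) and 26 fell (11.9%, against 4.60% of all genes) in UM-Cis, with a median difference of -0.09 against -0.04 over all genes. On the numbered arrays alone 27 rose and 42 fell, where the calls over all 14812 genes also grew, to 1387 and 1301. With the array label as a block 28 rose and 42 fell (1450 and 1244 over all genes). With arrays scaled to equal control genes 18 rose and 6 fell (787 and 166 over all genes). All 45 genes called kept their sign under that scaling, and 18 of the 45 kept the call whichever array was left out. For each list below, the limma counts on all 6 arrays stand against the same shares of all genes, 5.91% higher and 4.60% lower.

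**Figure D5:**
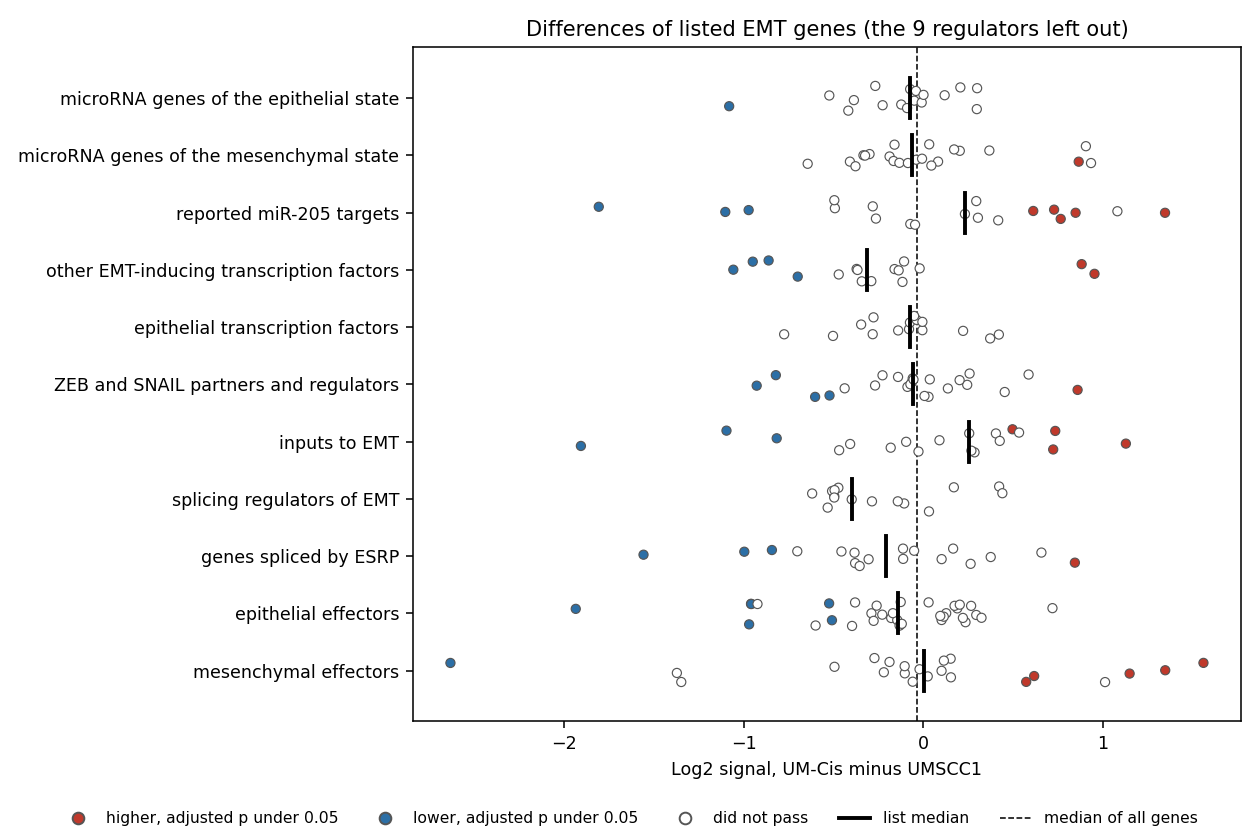
Difference in log2 signal, UM-Cis minus UMSCC1 (horizontal axis), of each measured gene of the 11 lists, with genes past an adjusted p of 0.05 filled (red higher, blue lower), list medians as black bars and the median of all genes as a dashed line. The medians run between -0.40 for splicing regulators and 0.26 for inputs to EMT, and *MMP14* is the leftmost point at -2.63.

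Genes reported as miR-205 targets, beside *ZEB1* and *ZEB2*, moved in both directions. Of 19 measured genes (of 25 listed), 5 rose and 3 fell, with a median difference of 0.23. The methods' t-test called 0 in either direction (7 were higher and 5 lower at an unadjusted limma p under 0.05), and with arrays scaled to equal control genes 4 rose and 1 fell. *BCL6*, a transcriptional repressor, rose to log2 signals of 7.14, 6.84 and 7.39 in UM-Cis, against 5.61, 5.98 and 5.75 in UMSCC1 (difference 1.35, SE 0.18, adjusted p = 0.00304 by limma). *NOTCH2* (0.85), *MED1* (0.77), *ESRRG* (0.73) and *INPPL1* (0.61), which encode a Notch receptor, a Mediator subunit, an orphan nuclear receptor and an inositol phosphatase, rose as well, and each lost the call in 4 or 5 of the 6 fits without 1 array.

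*VEGFA*, the angiogenic growth factor, fell to 5.89, 5.78 and 5.64 in UM-Cis, against 6.98, 6.52 and 6.74 in UMSCC1 (difference -0.97, SE 0.16, adjusted p = 0.00697 by limma). *HMGB3*, a chromatin protein gene, had a difference of -1.103 on the log2 scale and fell too (SE 0.19, adjusted p = 0.00943). *IL24*, a cytokine gene, fell by 1.81 (SE 0.30, adjusted p = 0.00783), to 4.51, 4.97 and 5.02 in UM-Cis, against 5.92, 6.92 and 7.08 in UMSCC1. *IL24* and *IL32* are known as genes that miR-205 raises in prostate cells and not as repressed targets. *IL32* had log2 signals of 7.17, 6.17 and 5.92 in UM-Cis, against 5.55, 5.27 and 5.20 in UMSCC1, and its difference of 1.08 (SE 0.30) did not pass by limma (adjusted p = 0.0586) but did with the array label as a block (adjusted p = 0.0144). Without *IL24* and *IL32*, a choice made after the values were seen, 5 of 17 rose and 2 fell, and the median stayed at 0.23.

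Among 16 other EMT-inducing transcription factors measured (of 19 listed), 2 rose and 4 fell, with a median difference of -0.32. *FOSL1*, an AP-1 subunit, rose to 10.73, 10.86 and 10.92 in UM-Cis, against 10.17, 9.79 and 9.68 in UMSCC1 (difference 0.95, SE 0.16, adjusted p = 0.00808 by limma). *TCF4*, an E protein that pairs with basic helix-loop-helix factors, rose by 0.88 (SE 0.20, adjusted p = 0.0257) but lost the call in 4 of the 6 fits without 1 array. *FOXQ1* (-0.95), *HMGA2* (-0.86), *SOX9* (-0.70) and *SOX4* (-1.06) fell, and of these *SOX4* lost the call in 4 of the 6 fits without 1 array, *HMGA2* in 2, and *FOXQ1* and *SOX9* in 1 each. With arrays scaled to equal control genes 2 factors of the list rose and 0 fell by limma, and the methods' t-test called 0 higher and 1 lower.

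Of 15 epithelial transcription factors measured (of 20 listed), 0 passed in either direction by limma, with a median difference of -0.07. At an unadjusted p under 0.05, 2 were higher and 2 lower, and the methods' t-test called 0. *ELF5* (-0.50, SE 0.14, adjusted p = 0.0625) and *TFAP2C* (-0.78, SE 0.22, adjusted p = 0.0628) came nearest, and *TFAP2C* passed with the array label as a block (adjusted p = 0.0214). *NKX2-1* differed by 0.42 (SE 0.15) and *FOXA1* by 0.37 (SE 0.15). *GRHL2*, which opposes *ZEB1*, had overlapping log2 signals of 8.52, 7.81 and 7.85 in UM-Cis, against 8.71, 8.27 and 8.22 in UMSCC1 (difference -0.35, SE 0.23, adjusted p = 0.403). *TP63* was not analysed here.

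Of 23 measured partners and regulators of ZEB and SNAIL proteins (of 30 listed), 1 rose and 4 fell, with a median difference of -0.06. F-box genes whose products mark SNAIL for degradation differed in direction. *FBXL5* rose by 0.86 (SE 0.13, adjusted p = 0.00584 by limma), and *FBXL14* fell by 0.93 (SE 0.20, adjusted p = 0.0240). *BTRC* had a difference of 0.59 (SE 0.29, adjusted p = 0.271, and 0.0167 with the array label as a block) and *FBXO45* one of -0.05 (SE 0.13). The corepressor genes *SUV39H1* (-0.82) and *EHMT2* (-0.60), both histone methyltransferases, and *RCOR1* (-0.52) fell as well. *FBXL5* and *SUV39H1* kept the call whichever array was left out, while *FBXL14* and *RCOR1* lost it in 5 of the 6 fits and *EHMT2* in all 6. With arrays scaled to equal control genes 1 gene of the list rose and 0 fell by limma (*SUV39H1* adjusted p = 0.209), and the methods' t-test called 1 higher and 2 lower.

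Signals that can start EMT also moved both ways, with 4 of 19 measured genes (of 29 listed) higher, 3 lower and a median difference of 0.26. In the TGF-β pathway, the signal transducer *SMAD3* rose to 6.39, 6.52 and 6.70 in UM-Cis, against 5.50, 5.47 and 5.25 in UMSCC1 (difference 1.13, SE 0.14, adjusted p = 0.00247 by limma). Its partner *SMAD4* rose by 0.72, and the receptor kinase genes *AXL* and *MET* rose by 0.73 and 0.50. Of these, *SMAD3* alone kept the call whichever array was left out. The Notch receptor gene *NOTCH1* fell by 0.82 (SE 0.13, adjusted p = 0.00663), its ligand *JAG1* fell by 1.91 (SE 0.47, adjusted p = 0.0369) and the growth factor *PDGFA* fell by 1.097 (SE 0.24, adjusted p = 0.0254). *JAG1* lost the call in 4 of the 6 fits without 1 array and *PDGFA* in 3. The methods' t-test called 3 higher and 1 lower. *TGFB2* was not analysed here.

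Splicing regulators, read beside *ESRP1*, had the lowest list median, -0.40 over 15 measured genes (of 23 listed). By limma 0 rose and 1 fell, which was *SRSF1* (-0.50, SE 0.13, adjusted p = 0.0438), and it lost the call in every fit without 1 array. Before adjustment, at a p under 0.05, 2 were higher and 6 lower, and the methods' t-test called 0. With arrays scaled to equal control genes 0 passed in either direction, and with the array label as a block 1 rose and 6 fell, among them *PTBP1* (-0.47, adjusted p = 0.0607 without the block and 0.0357 with it). *RBM47* (0.44) had an adjusted p of 0.0931 without the block and 0.0396 with it, and *PTBP2* differed by 0.42 (SE 0.13, adjusted p = 0.0890).

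Of 18 measured genes whose transcripts ESRP proteins splice (of 25 listed), 1 rose and 3 fell, with a median difference of -0.21. *KIF13A*, a kinesin gene, fell to 5.69, 5.88 and 5.77 in UM-Cis, against 7.18, 7.37 and 7.46 in UMSCC1 (difference -1.56, SE 0.13, adjusted p = 0.000698 by limma). *FGFR2*, a fibroblast growth factor receptor gene, fell by 1.00 (SE 0.23, adjusted p = 0.0296) and *OSBPL3* by 0.84, and *EPB41L5* rose by 0.84. *FGFR2* lost the call in 4 of the 6 fits without 1 array and *OSBPL3* in 3. With arrays scaled to equal control genes 1 rose and 1 fell, and the methods' t-test called 2 higher and 1 lower. *CD44* differed by 0.10 (SE 0.18, adjusted p = 0.790). Signals of whole genes do not show which splice form was made.

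Among 34 measured epithelial effectors (of 50 listed), 0 rose and 6 fell, with a median difference of -0.14. The 6 were the matriptase gene *ST14* (-0.96), the desmosomal genes *PKP2* (-0.97) and *PKP3* (-0.52), the basal keratin gene *KRT5* (-1.94) and the tight junction genes *CLDN7* (-0.96) and *TJP3* (-0.51). At an unadjusted p under 0.05, 1 was higher and 9 were lower, and the methods' t-test called 2. *TJP3* lost the call in all 6 fits without 1 array, and *PKP3* and *CLDN7* in 4 each, while *ST14*, *PKP2* and *KRT5* kept it in all 6. *KRT5* (mean 5.64) and *TJP3* (mean 5.38) lay under the limit of 5.73 for dim probe sets. With arrays scaled to equal control genes, 1 of the list rose and 1 fell. *ST14* had log2 signals of 7.70, 7.56 and 7.53 in UM-Cis, against 8.51, 8.54 and 8.61 in UMSCC1 (SE 0.12, adjusted p = 0.00259 by limma). *EPCAM*, an epithelial adhesion gene, had signals of 10.24, 10.40 and 10.28 in UM-Cis, against 10.29, 10.70 and 10.70 in UMSCC1, and the difference of -0.26 (SE 0.15) did not pass (adjusted p = 0.356). *CDH1* and *CDH3* were not analysed here.

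Of 22 measured mesenchymal effectors (of 48 listed), 5 rose (22.7%) and 1 fell (4.55%), with a median difference of 0.00. At an unadjusted limma p under 0.05, 6 were higher and 2 lower, and the methods' t-test called 5. The matrix and growth factor genes *CCN2* (1.56), *FBN1* (1.35), *TNC* (1.15) and *FSTL1* (0.62) and the tropomyosin gene *TPM2* (0.57) rose. *CCN2* had log2 signals of 9.40, 9.66 and 9.43 in UM-Cis, against 7.78, 7.99 and 8.05 in UMSCC1 (SE 0.14, adjusted p = 0.000846 by limma). *MMP14*, a membrane-bound matrix protease gene, fell to 5.50, 5.74 and 5.45 in UM-Cis, against 8.25, 8.09 and 8.25 in UMSCC1 (difference -2.63, SE 0.14, adjusted p = 0.000144). *CCN2*, *FBN1* and *MMP14* kept the call whichever array was left out, while *TNC* and *TPM2* lost it in 4 of the 6 fits and *FSTL1* in 3. *FBN1* averaged 4.63 over the 6 arrays, under the limit of 5.73 for dim probe sets, and its UMSCC1 mean (3.95) was under the array medians. *TAGLN* (-1.37, adjusted p = 0.0655 by limma) and *FN1* (-1.35, adjusted p = 0.236) were lower on every UM-Cis array but did not pass. *EMP3* (1.01, adjusted p = 0.109) was higher on every UM-Cis array and did not pass either. With the array label as a block, *TAGLN* (adjusted p = 0.0284) and *EMP3* (adjusted p = 0.00564) passed. For *FN1*, the UMSCC1 array with no number (9.26) lay far above the other UMSCC1 arrays (6.55 and 6.69).

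*VIM*, the intermediate filament gene of mesenchymal cells, had log2 signals of 5.94, 6.03 and 5.93 in UM-Cis, against 5.98, 6.16 and 5.83 in UMSCC1. The lines overlapped, and the difference was -0.02 (SE 0.14, adjusted p = 0.949 by limma). *CDH2* was not analysed here. Of 4 measured fibroblast markers (of 12 listed), 0 passed by limma, at an unadjusted p under 0.05 or by the methods' t-test, and their summed linear signal was 70.6 to 78.9 on UM-Cis arrays and 64.3 to 79.2 on UMSCC1 arrays. Of 5 measured leukocyte markers (of 12 listed), *CD68*, a lysosomal protein gene, rose (difference 1.41) and *CD14* fell (-0.53). *LYZ* (-0.29) and *TYROBP* (-0.33) were also lower on every UM-Cis array but did not pass, and *CSF1R* overlapped. Their summed linear signal, carried mostly by *CD68*, was 998.9 to 1637 on UM-Cis arrays and 457.6 to 661.0 on UMSCC1 arrays. The part of these markers in the results on EMT genes was not tested.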

How the data were processed

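The values deposited by the authors were log2 signals of 44629 probe sets, from total RNA of each line on 3 Affymetrix Human Gene 2.0 ST arrays. The submitters' processing notes name RMA and the study's text names quantile normalization. The RMA version, the annotation and any filter were not given in those sources. The number of arrays limits the precision, and no detection call was used. Since no source says whether the 3 samples of a line came from separate cultures, p-values measure only their spread, which may be technical.

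The platform annotation gave 1 symbol for 15835 probe sets, several for 0 and none for 28794. The brightest probe set by mean signal stood for each of 14812 genes (651 genes had more than 1). UM-Cis was compared with UMSCC1 in limma 3.58.1 under R 4.3.3 (lmFit and eBayes, two-sided) over all genes, adjusted by Benjamini-Hochberg, at a threshold of 0.05 and with no filter on dim probe sets. The step was tested on simulated data. The 9 genes and the lists were chosen with earlier results of these data known.

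Named were the 9 genes, *ESRP2*, the 4 microRNA genes of each list with the largest differences, the 4 genes of each other list with the smallest adjusted p, *GRHL2*, *EPCAM*, *VIM*, *FGFR2* and *CD44*, and for *MIR205*, *ZEB1* and *ESRP1* the 3 genes with the highest and the 3 with the lowest r. Further genes were named after their values were seen, where a count was small, a difference ran the other way or a sum was carried by few genes.

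Deviations from the line means correlated between same-labelled arrays by 0.505 (no number), 0.237 (array 1) and 0.357 (array 2). On that basis, with no support in the sources, same labels were treated as pairs in the fit with the array label as a block. The main fit was unpaired. Arrays 1 and 2 also correlated across labels (0.265 and 0.233), and no source states a shared batch. Alternatives were the methods' t-test with the same adjustment, array weights, a prior with trend and robust fit, quantile or cyclic loess normalization on top of the deposited values, scaling to the median of 6 control genes, leaving out dim probe sets, other choices of probe set, leaving out each array, the numbered arrays alone, the array label as a block, and 2-fold with an unadjusted p. Sequences and coordinates are from RefSeq (GRCh38.p14), in which 4 of the 8 protein-coding regulators had a promoter window. *SNAI1*, *SNAI2*, *TWIST1* and *ESRP1* had none there. Figures were drawn with matplotlib 3.10.9.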

Additional observations from a re-analysis of the deposited data

How the results depend on the processing

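Of the 9 genes, 8 kept the sign of their difference under every alternative that held them, and *SNAI1* did not. Leaving out dim probe sets kept *MIR205*, *SNAI2* and *ESRP1* and removed the other 6. Scaling by the median of 6 control genes added 0.24 to every difference, which became -3.45 for *MIR205*, 0.87 for *ZEB1*, 0.84 for *ZEB2*, 0.11 for *SNAI1*, 1.33 for *SNAI2*, 0.79 for *TWIST1*, -0.22 for *TWIST2*, -0.087 for *PRRX1* and -0.34 for *ESRP1*. Leaving out 1 array gave differences between -3.84 and -3.51 for *MIR205*, 0.59 and 0.70 for *ZEB1*, 0.52 and 0.66 for *ZEB2*, -0.26 and 0.077 for *SNAI1*, 1.00 and 1.17 for *SNAI2*, 0.43 and 0.65 for *TWIST1*, -0.58 and -0.28 for *TWIST2*, -0.45 and -0.25 for *PRRX1*, and -0.63 and -0.52 for *ESRP1*. As a description, with no weight given to calls of genes chosen on this contrast, *ZEB1* and *ZEB2* were past the threshold in 2 of these 6 fits, those without an array with no number, and lost it when any 1 numbered array of either line was left out. *ESRP1* was past it in 1 of 6, without the UM-Cis array with no number, where *TWIST1* passed as well. *ZEB2* and *ESRP1* were also not past it by the methods' t-test, with equal control genes or over all probe sets. The replicate block changed the call of none of the 9 genes.

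Of the listed EMT genes, 19 were higher and 26 lower in UM-Cis. Higher were 10 by the methods' t-test, 9 over all probe sets, 7 by 2-fold with an unadjusted p, and between 7 (without UMSCC1 array 1) and 18 with 1 array left out. Lower were 9 by the methods' t-test, 45 with array weights, 6 with equal control genes, 17 over all probe sets, 42 on the numbered arrays alone, 42 with the replicate block, 10 by 2-fold with an unadjusted p, and between 12 (without UM-Cis array 1) and 28 with 1 array left out. The cause of these changes in the counts was not tested. Over all genes, 322 were higher and 248 lower by the methods' t-test, 1594 and 1508 with array weights, 560 and 415 over all probe sets, 1387 and 1301 on the numbered arrays alone, 1450 and 1244 with the replicate block, and 362 and 252 by 2-fold with an unadjusted p. With no detection call, the signal over background of dim genes such as *ZEB1*, *ZEB2* and *TWIST2* is not known.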
